A study of Mus musculus with 4 samples.

Results

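Chemokines are small proteins that fibroblasts and other tissue cells release to attract leukocytes, and 10 chemokine genes were followed here across genotype and medium in mouse embryonic fibroblasts (MEFs), cultured connective tissue cells taken from embryos. The genes were taken as a list by symbol, chosen with earlier results of these data known. The list holds 10 of the 19938 genes read by probe sets with a single gene name. They comprise the CC chemokine genes Ccl2, Ccl5, Ccl7, Ccl8 and Ccl9, the CXC chemokine genes Cxcl1, Cxcl5, Cxcl10 and Cxcl12, and the CX3C chemokine gene Cx3cl1. Each had 1 probe set on the array. The cells were wild type or labelled NFAT5/TonEBP knockout, NFAT5 being the transcription factor that switches on genes protecting cells from hypertonic stress. Both genotypes spent 20 hours, unsynchronised, either in isotonic medium or in a hypertonic medium to which NaCl was added up to 450 mosmol/kg. Every one of the 4 groups was 1 pool of 4 samples read on 1 array, so no group has a spread between replicates, no test was possible, and every difference describes these 4 pools. The labels do not say how the NFAT5 gene was disrupted, nor how many embryos or isolates the cells came from, nor whether the genotypes were littermates.

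The family name of a chemokine gives the spacing of the first cysteines of the protein, and each binds G protein-coupled receptors on the cells it attracts. In fibroblasts, inflammatory chemokines such as Ccl2, Cxcl1 and Cxcl5 are classic targets of the transcription factor NF-kB. Cxcl10 and Ccl5 also respond to interferon through IRF and STAT factors. Cxcl12 is made by unstimulated stromal cells and holds blood progenitors and lymphocytes in their niches.

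All values are log2 signals as deposited, and a difference of 1 is 2-fold. A signal was called dim when it lay below its array's median over probe sets naming a single gene, and these dim limits ran from 5.38 to 5.44. A gene counted as measured where at least 1 of the arrays in a comparison read it above the limit. The Nfat5 probe set read 7.74 and 8.19 in wild-type isotonic and hypertonic cells and 8.03 and 8.24 in the cells labelled knockout, so it did not check the label, and those cells are called knockout-labelled below. Fibroblast markers fitted the labelled cell type in part: 9 of 12 were above the limit on every array, among them Col1a1, Col1a2, Vim and Fn1, while Dcn and Lum were dim on every array. Of 12 leukocyte and macrophage markers only Cd68 was above the limit on any array, with signals between 5.31 and 5.62, and Ptprc, which marks all leukocytes, lay between 3.22 and 3.51. The list's mean log2 signal was 3.87, 3.94, 3.84 and 3.86 on the wild-type isotonic, wild-type hypertonic, knockout-labelled isotonic and knockout-labelled hypertonic arrays. Of 7 endothelial markers only Egfl7, and of 6 epithelial markers Cdh1, Krt8 and Krt18, were above the limit on any array.

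The proximal promoter sequence is shown for 3 members whose signals behaved differently, Cxcl1, Cxcl10 and Cxcl12. RefSeq promoter windows (GRCm38.p6) matched 6 of the 10 members, those of Ccl8, Ccl9, Cxcl1, Cxcl10, Cxcl12 and Cx3cl1. The 250 bases before the transcription start were searched on both strands for an NF-kB-like motif (GGGA and CC with NNTN between them), an interferon-element motif (GAAA, then NN, then GAAA again) and TGGAAA, the core shared by NFAT sites and the tonicity element that NFAT5 binds. Capitals mark every match on either strand, and the strands are those of the gene, read 5′ to 3′.
Cxcl1 (chr5:90890995-90891244, plus strand): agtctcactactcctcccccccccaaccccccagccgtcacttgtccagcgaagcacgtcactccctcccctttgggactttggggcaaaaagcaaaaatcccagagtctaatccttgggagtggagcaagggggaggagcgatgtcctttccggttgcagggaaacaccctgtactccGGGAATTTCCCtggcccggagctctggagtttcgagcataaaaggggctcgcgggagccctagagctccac
Cxcl10 (chr5:92348890-92349139, minus strand): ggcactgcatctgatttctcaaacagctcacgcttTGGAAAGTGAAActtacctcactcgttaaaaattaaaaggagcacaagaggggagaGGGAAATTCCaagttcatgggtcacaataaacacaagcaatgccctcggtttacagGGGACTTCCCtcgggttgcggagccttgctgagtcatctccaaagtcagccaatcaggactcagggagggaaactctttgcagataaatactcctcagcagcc
Cxcl12 (chr6:117168285-117168534, plus strand): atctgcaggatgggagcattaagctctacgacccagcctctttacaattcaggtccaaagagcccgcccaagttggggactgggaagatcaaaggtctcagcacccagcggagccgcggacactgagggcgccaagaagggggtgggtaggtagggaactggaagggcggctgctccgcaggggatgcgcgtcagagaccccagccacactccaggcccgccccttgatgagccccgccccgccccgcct
In the Cxcl1 window, the NF-kB-like motif matched on both strands in overlapping positions, from base -71 to -61 counted from the start. The Cxcl10 window held 2 places with that motif, starting at -159 and -103, and an interferon-element match from -213 to -204 that overlaps a TGGAAA match starting at -215. Of these motifs the Cxcl12 window held none, nor did those of Ccl8 and Cx3cl1, and the Ccl9 window held TGGAAA at -72 and -36. Of 32851 such windows in the table, 3.33% held the NF-kB-like motif, 2.98% the interferon-element motif and 18.6% TGGAAA. The motifs were chosen after the promoter windows were read, so these shares cannot show whether the matches are unusual. A match describes these letters only, and binding was not measured.

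The monocyte-attracting genes Ccl2 and Ccl7 were both lower on the knockout-labelled arrays. Ccl2, whose protein draws monocytes through the receptor Ccr2, read 7.46 in isotonic and 7.61 in hypertonic medium in wild-type cells, and 6.49 in both media in knockout-labelled cells. The medium made little difference to it in either genotype. Ccl7, a close relative that attracts monocytes and also eosinophils, had signals of 6.72 and 7.22 in wild-type and 6.39 and 6.23 in knockout-labelled isotonic and hypertonic cells. It was highest in the wild-type hypertonic pool, and the other 3 pools lay closer together. In the RefSeq gene order Ccl2 and Ccl7 are neighbours with 0 protein-coding genes between them. Ccl8, which lies 2 genes further on, past Ccl11 and Ccl12, was dim on all arrays, between 2.73 and 2.99, so its differences of at most 0.26 mostly describe background.

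Ccl5, which attracts T cells and monocytes, went from 8.23 in isotonic to 9.02 in hypertonic medium in wild-type cells and from 7.76 to 7.54 in knockout-labelled cells. The wild-type hypertonic pool stood highest and the knockout-labelled hypertonic pool lowest. Its neighbour Ccl9, a ligand of the receptor Ccr1, was dim on all arrays, between 4.24 and 4.59.

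The neutrophil-attracting genes Cxcl1 and Cxcl5, whose proteins act through the receptor Cxcr2, were also lower in knockout-labelled cells, but by different amounts. Cxcl1 had signals of 7.08 and 6.92 in wild-type and 6.58 and 6.03 in knockout-labelled isotonic and hypertonic cells. For Cxcl5 they were 6.95 and 7.54 in wild-type and 5.35 and 4.27 in knockout-labelled cells. Both genes were lowest in the knockout-labelled hypertonic pool, where Cxcl5 was 1.14 below the dim limit. It was also just under the limit in the knockout-labelled isotonic pool, so Cxcl5 was readable in wild-type cells alone, and the size of its genotype difference is poorly determined. Between Cxcl5 and Cxcl1 lie 4 chemokine genes, Ppbp, Pf4, Cxcl3 and Cxcl15, all of them dim on every array.

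Cxcl10 is an interferon-induced attractant of activated T cells through Cxcr3. It was the 1 measured member that read higher in knockout-labelled cells in both media, by only 0.11 in isotonic medium. In isotonic and hypertonic medium it read 10.27 and 9.94 in wild-type cells, and 10.38 and 10.62 in knockout-labelled cells. The knockout-labelled hypertonic pool was highest and the wild-type hypertonic pool lowest, a range of 0.68.

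Cxcl12, the stromal ligand of Cxcr4, read 8.73 and 9.01 in wild-type cells, and 8.48 and 7.39 in knockout-labelled cells. The knockout-labelled hypertonic pool was low, and the other 3 pools lay between 8.48 and 9.01. Cx3cl1, a membrane-anchored chemokine that is shed by the proteases Adam10 and Adam17, had signals of 6.56 and 6.26 in wild-type and 5.87 and 6.12 in knockout-labelled isotonic and hypertonic cells. It was highest in the wild-type isotonic pool, and the medium difference had opposite signs in the genotypes. In all, 7 members were above the dim limit on every array, Cxcl5 on 2 arrays, and Ccl8 and Ccl9 on none.

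**Figure D1:**
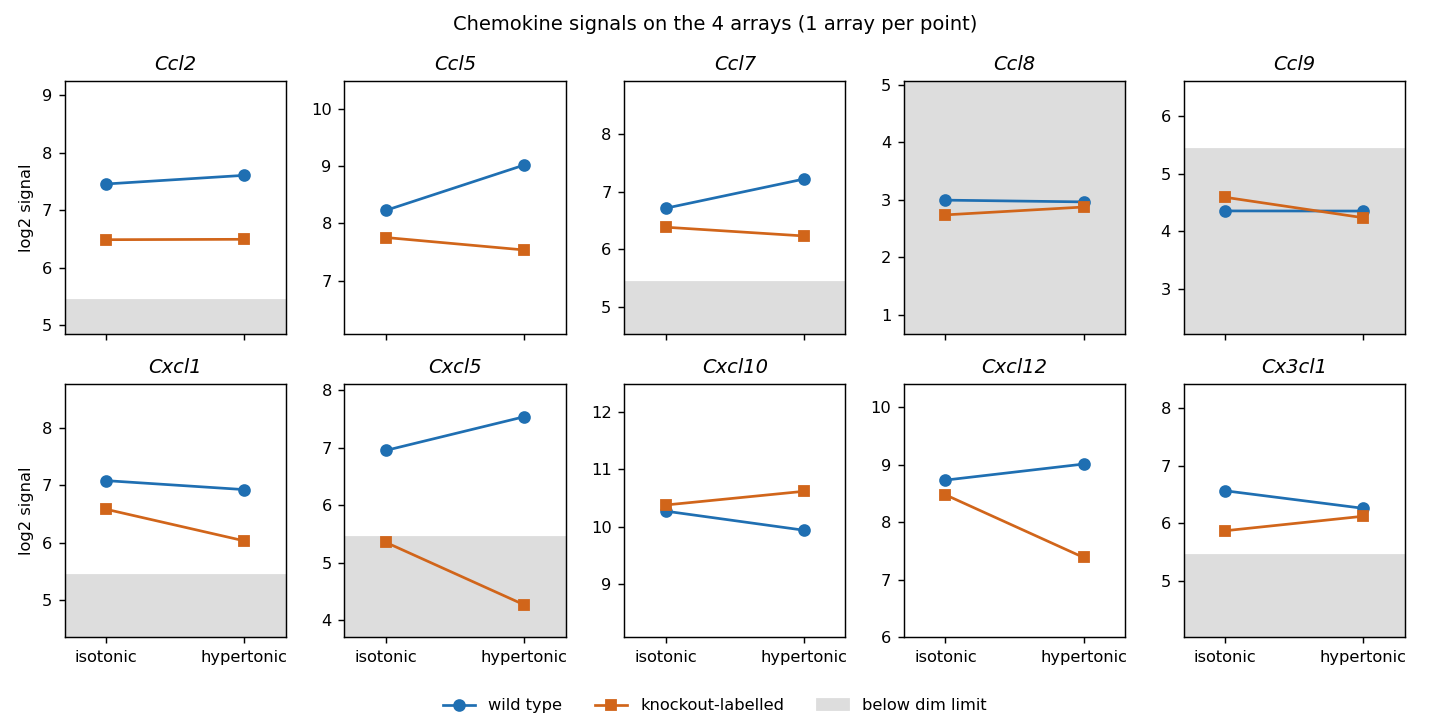
The log2 signal of each chemokine gene (vertical axis, the same span in every panel but starting at different values) is plotted in isotonic and hypertonic medium for wild-type (circles) and knockout-labelled (squares) cells, 1 array per point, with the area below the highest dim limit shaded. Cxcl5 enters the shaded area in knockout-labelled cells, Ccl8 and Ccl9 lie in it throughout, and the Cxcl12 line drops from 8.48 to 7.39 in knockout-labelled cells.

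The first comparison asked how wild-type cells responded to hypertonic medium. Ccl5 was higher by a log2 difference of 0.79, a ratio of 1.73, Cxcl5 by 0.59 and Ccl7 by 0.51. Smaller differences were read for Cxcl12 (0.28), Ccl2 (0.15), Cxcl1 (-0.16), Cx3cl1 (-0.31) and Cxcl10 (-0.33). None of the 8 measured members passed 2-fold, and 3 of the 8 were below 0, where 53.9% of all measured genes were. The backgrounds were 1.01% of 10134 measured genes for 2-fold higher values and 0.414% for 2-fold lower ones. The members' median was 0.21 and that of all measured genes was -0.02.

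The members have 1 probe set each, so the spread between probe sets of a gene was taken from other genes, the 441 with 2 measured probe sets. For 95% of them the probe sets gave wild-type responses within 0.44 of each other. Ccl5, Ccl7 and Cxcl5 exceeded that spread, which does not include variation between cultures or hybridisations. The same figure was 0.59 for the knockout-labelled response, 0.58 and 0.64 for the genotype difference in isotonic and hypertonic medium, and 0.76 for the difference of responses. The share of all genes beyond these figures was not counted, so members lying beyond them are not a result about the group.

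In knockout-labelled cells none of the 7 measured members read higher in hypertonic medium beyond the spread between probe sets. Ccl5 differed by -0.22 and Ccl7 by -0.15, both inside that spread. Cxcl12 was lower by a log2 difference of -1.09, a ratio of 0.47, and Cxcl1 differed by -0.55. Cxcl10 (0.24), Cx3cl1 (0.25) and Ccl2 (0.01) had small positive values. Cxcl5 differed by -1.08 between 2 dim signals and was not counted. Of the 7 measured members 1, Cxcl12, was at least 2-fold lower and none was at least 2-fold higher. Among 10277 measured genes 3.08% were at least 2-fold lower and 0.379% at least 2-fold higher, so 1 lower member is not a result about the group. Below 0 were 4 of the 7, near the 60.1% of all measured genes. The call for Cxcl12 sat at the limit: its difference was -0.97 after quantile normalization and -0.99 after cyclic loess. The background split moved as well, from 39 higher and 317 lower genes to 63 and 215 after quantile normalization, as the median of all genes went from -0.09 to 0.01, and to 66 and 233 after centring.

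**Figure D2:**
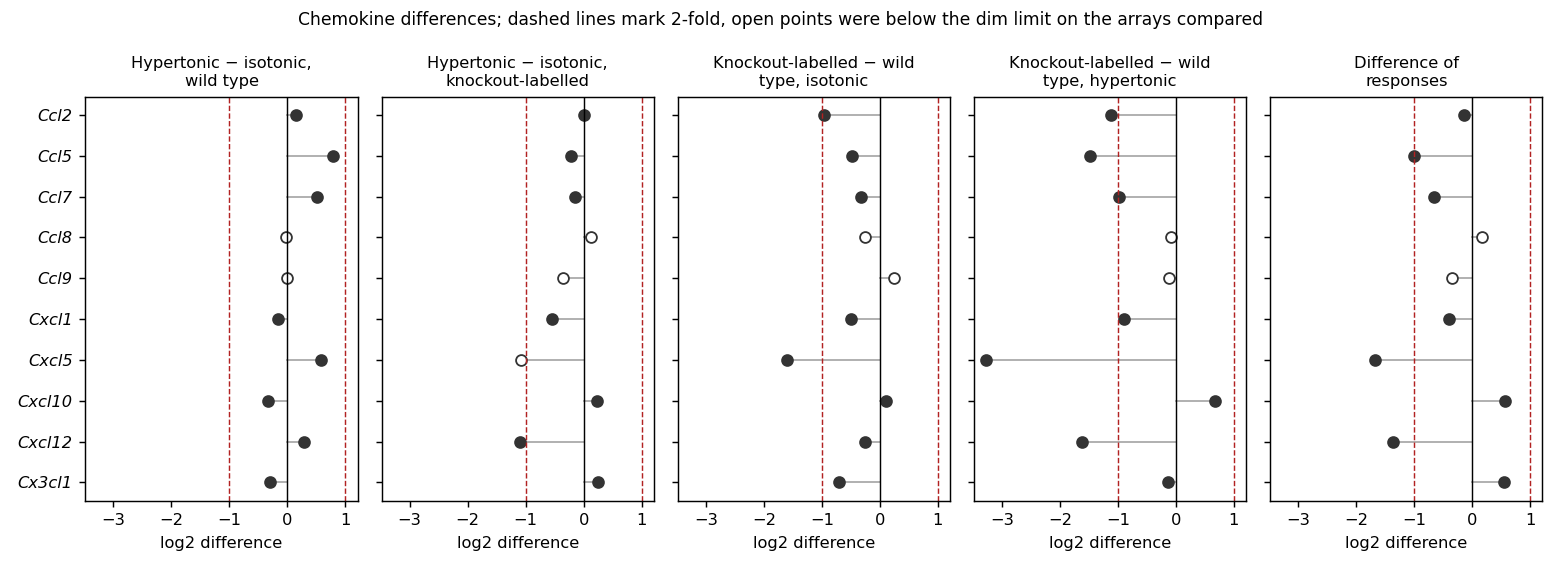
Log2 differences (horizontal axis) of the 10 chemokine genes in the 5 comparisons, with dashed lines at 2-fold and open points for genes below the dim limit on the arrays compared. The fourth panel, the genotype difference in hypertonic medium, has Cxcl5, Cxcl12, Ccl5 and Ccl2 left of the lower dashed line, and Cxcl10 is the 1 filled point to the right of 0.

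The genotypes were then compared within each medium. In isotonic medium 7 of the 8 measured members were below 0, against 45.2% of 10191 measured genes, and their median was -0.49 against 0.03 for all genes. Cxcl5 was lower in knockout-labelled cells by a log2 difference of -1.60, to a signal just under the dim limit. Taken to that limit, the difference was at least 2.97-fold. Just short of 2-fold was Ccl2 (-0.97), which reached -1.0004 after quantile normalization. The differences of Cx3cl1 (-0.70), Cxcl1 (-0.50), Ccl5 (-0.47), Ccl7 (-0.33) and Cxcl12 (-0.26) were smaller, and Cxcl10 read 0.11 higher. Thus 1 of 8 was at least 2-fold lower and 0 at least 2-fold higher, against 1.28% and 1.59% of all measured genes. That member, Cxcl5, was counted through its wild-type signal, and of the 7 members above the limit in both genotypes 0 passed 2-fold. Beyond the spread between probe sets lay Ccl2, Cx3cl1 and, read against a dim knockout-labelled signal, Cxcl5.

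In hypertonic medium 4 of the 8 measured members were at least 2-fold lower in knockout-labelled cells and none was at least 2-fold higher, where 6.43% and 2.57% of 10374 measured genes were. Cxcl12 (-1.62), Ccl5 (-1.48) and Ccl2 (-1.11) were 3.08-fold, 2.78-fold and 2.16-fold lower, with signals above the dim limit in both genotypes. The fourth, Cxcl5 (-3.27), was counted through its wild-type signal and read below the limit in knockout-labelled cells, so it was at least 4.39-fold lower when taken to the limit. Without it, 3 of the 7 members above the limit in both genotypes were at least 2-fold lower. Ccl7 (-0.99) lay just outside the limit, followed by Cxcl1 (-0.89). Cx3cl1 differed by -0.14, within the spread of probe sets, while Cxcl10 was higher by 0.68, slightly beyond it. Again 7 of 8 members were below 0, where 50.5% of all measured genes were. The median of the members was -1.05 and that of all measured genes was -0.01. Because the list was chosen with earlier results known, the shares of all genes cannot show whether the members' counts are unusual, in any comparison. Of the 3 measured chemokine ligands outside the list, 1 was at least 2-fold higher here, counted through its knockout-labelled signal. Of those ligands 0 were at least 2-fold lower, and their median was 0.47. Fewer cells that make a chemokine and less RNA per cell cannot be told apart in such pools.

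Fibroblast markers moved with this difference. Of 10 measured, 7 were at least 2-fold lower in knockout-labelled hypertonic cells, where 6.43% of all genes were, and the median was -1.56. Among the 7 were S100a4 (-3.81), Postn (-2.40) and Col1a1 (-1.64), whereas Vim (-0.07) and Fn1 (0.23) differed little. Postn was counted through its wild-type signal and read a dim 4.96 in knockout-labelled hypertonic cells, so its difference is poorly determined. The mean log2 signal of the 12 markers was 8.61, 8.89, 8.01 and 7.63 on the wild-type isotonic, wild-type hypertonic, knockout-labelled isotonic and knockout-labelled hypertonic arrays. Its part in the chemokine differences was not tested.

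**Figure D3:**
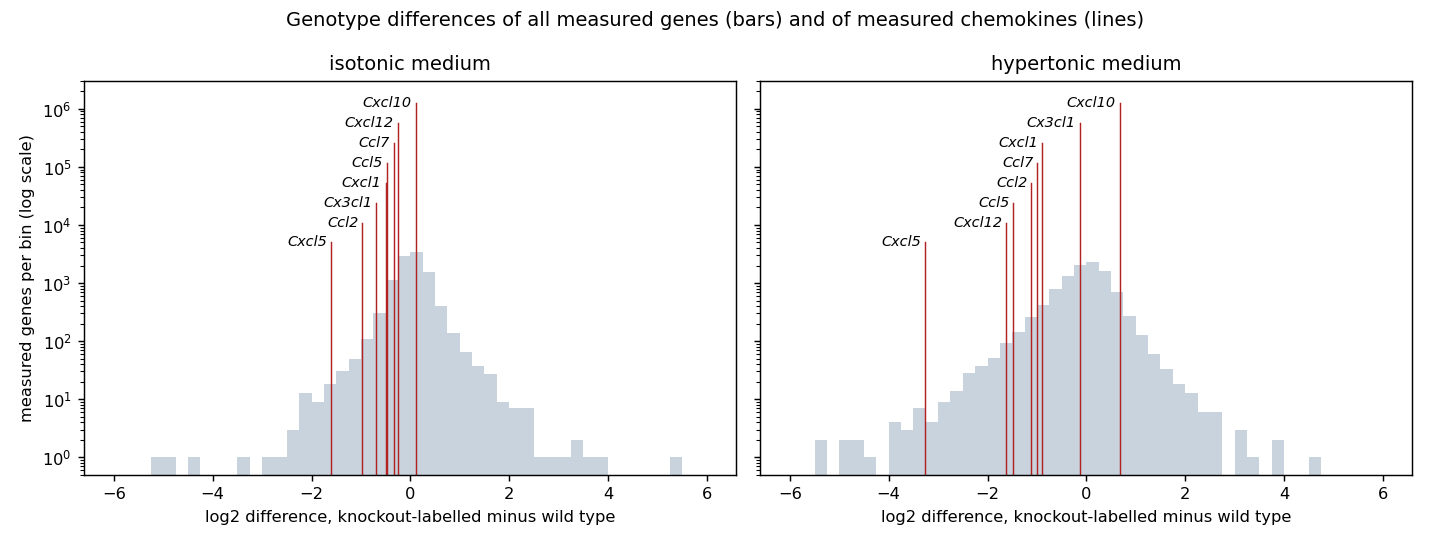
Bars count all measured genes (vertical axis, log scale) by their log2 difference, knockout-labelled minus wild type, in isotonic (left) and hypertonic (right) medium, and red lines mark the 8 measured chemokine genes; line height only separates the names. In hypertonic medium most chemokine lines lie left of the centre, with Cxcl5 at -3.27, a value read against a dim signal, and Cxcl10 alone right of 0 at 0.68.

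The last comparison subtracted the wild-type response from that of knockout-labelled cells. It uses the same 4 arrays as the others, so its values are not separate evidence. Cxcl5 had a difference of responses of -1.67, Cxcl12 of -1.37 and Ccl5 of -1.004, making 3 of 8 measured members at least 2-fold negative, against 5.53% of 10542 genes. The Ccl5 value was -0.91 after quantile normalization, -0.95 after cyclic loess and -0.95 after centring, so its call rests on the scaling. The Cxcl5 value rests on dim knockout-labelled signals, and of the 7 members above the limit on all arrays 2 were at least 2-fold negative. Ccl7 (-0.66), Cxcl1 (-0.39) and Ccl2 (-0.14) were negative as well, making 6 of 8 below 0, where 55.5% of all genes were. Cxcl10 (0.57) and Cx3cl1 (0.56) were positive, and none was at least 2-fold positive, where 1.41% of all genes were. Among measured members, Ccl5, Ccl7, Cxcl1, Cxcl5 and Cxcl12 had their lowest and Cxcl10 its highest signal on the knockout-labelled hypertonic array. Which knockout-labelled array was hypertonic rests on the labels alone.

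The genes whose 4-array profile was most like that of the 2 members with the widest range were found by the Euclidean distance between profiles centred on their mean, among 10542 genes. For Cxcl5 these were Rcn3 at a distance of 0.07, Vcan at 0.23 and Adgrg6 at 0.34. Cxcl5 itself was dim on both knockout-labelled arrays, so its profile and these distances rest partly on dim signals. Vcan was dim as well on the knockout-labelled hypertonic array, at 5.05. Rcn3, a calcium-binding protein of the endoplasmic reticulum, had signals of 9.21, 9.79, 7.69 and 6.55 on the wild-type isotonic, wild-type hypertonic, knockout-labelled isotonic and knockout-labelled hypertonic arrays, above the dim limit throughout. For Cxcl12 the nearest were Creb3l2 at 0.04, Cdkn2b at 0.09 and Atraid at 0.10. Creb3l2 read a dim 5.14 on the knockout-labelled hypertonic array. Cdkn2b, an inhibitor of the cell cycle kinases of G1, had signals of 8.93, 9.17, 8.59 and 7.62 in the same order.

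Other chemokine ligands were mostly dim. Of 28 listed, 26 could be matched and 3, Ccl25, Cxcl14 and Cxcl16, were above the dim limit on any array. Cxcl16, a membrane-anchored chemokine and scavenger receptor, had signals of 4.44 and 4.36 in wild-type and 5.47 and 6.54 in knockout-labelled isotonic and hypertonic cells. It was thus readable in knockout-labelled cells alone, where it was higher by 1.07 in hypertonic than in isotonic medium. Against wild-type cells it was counted through its knockout-labelled signals. Taken to the dim limit of the wild-type array, it was at least 2.14-fold higher in hypertonic and at least 1.03-fold higher in isotonic medium. Cxcl14, which attracts monocytes and dendritic cells, was highest in the knockout-labelled isotonic pool at 6.26, against 5.27 to 5.47 in the others. Those lower signals lay close to the dim limits, so its difference of responses of -1.05 is poorly determined. Ccl25, an attractant of thymocytes and gut T cells, ranged from 6.05 to 6.60.

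Of 23 chemokine receptor genes 22 were matched, and the leukocyte receptors Ccr2, Cxcr2, Cxcr3, Cxcr4 and Cx3cr1 were dim on all arrays. The 1 receptor above the limit was Ackr3, which takes up and removes Cxcl12. Ackr3 had signals of 4.74 and 5.21 in wild-type and 6.45 and 5.07 in knockout-labelled isotonic and hypertonic cells, so it was readable in the knockout-labelled isotonic pool alone. Taken to the dim limit, it was at least 2.06-fold lower in the hypertonic than in the isotonic knockout-labelled pool. Against the wild-type isotonic pool the knockout-labelled isotonic pool was at least 2.02-fold higher. Both differences were counted through that 1 signal. Over all measured genes 3.08% were at least 2-fold lower in the first comparison and 1.59% at least 2-fold higher in the second.

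Few genes of the list of NF-kB factors and feedback targets passed 2-fold. Of 20 genes 18 were matched, and none was at least 2-fold lower in any of the 5 comparisons, which is near the shares of 0.414% to 6.43% over all genes for a list of this size. None of the 16 measured in wild-type cells and none of the 17 in knockout-labelled cells passed 2-fold in the hypertonic response, with medians of -0.11 and 0.23. In isotonic medium 0 of 16 passed between genotypes, with a median of 0.03. In hypertonic medium 2 of 17 were at least 2-fold higher in knockout-labelled cells and 0 lower, with a median of 0.39, where 2.57% of all genes were higher. They were Vcam1 (1.25), a leukocyte adhesion molecule, and Tnfaip3 (1.03), a feedback inhibitor of NF-kB. Rela, the transactivating subunit, differed by 0.45 there, and Nfkbia, the inhibitor that NF-kB itself induces, by 0.27. Nfkb2 was the 1 gene past 2-fold in the difference of responses, at 1.05, where 1.41% of all genes were at least 2-fold positive.

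Among the interferon factors, 8 of 9 matched and 6 were measured in each comparison. Irf7, the factor that amplifies interferon production, was higher by 1.54 in hypertonic wild-type cells and lower by -1.07 in hypertonic knockout-labelled cells, each the 1 gene of 6 past 2-fold. Of all measured genes, 1.01% were at least 2-fold higher in the wild-type response and 3.08% at least 2-fold lower in the knockout-labelled response. Ccl5 had the same signs as Irf7, 0.79 and -0.22, and Cxcl10 the opposite signs, -0.33 and 0.24. Of these chemokine values only 0.79 lay beyond the spread between probe sets, and a link to Irf7 was not tested. Between genotypes Irf7 (1.34) and Stat2 (1.12) were at least 2-fold higher in knockout-labelled cells in isotonic medium, where 1.59% of all genes were. Ccl5 differed by -0.47 and Cxcl10 by 0.11 there, both inside the spread between probe sets. In hypertonic medium Irf7 alone was at least 2-fold lower (-1.26), where 6.43% of all genes were. The list's medians were 0.24, -0.15, 0.42 and 0.07 in these comparisons. In the difference of responses Irf7 (-2.61) and Irf9 (-1.08) were at least 2-fold negative, where 5.53% of all genes were. The list median there was -0.43.

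A further list held receptors for the cytokines and microbial patterns that induce chemokines, with some of their adaptors. Of 23 genes 21 matched. In wild-type cells 0 of 20 passed 2-fold on hypertonic medium, where 1.01% of all genes were higher and 0.414% lower, and the median was -0.14. In knockout-labelled cells 3 of 21 were at least 2-fold lower, where 3.08% of all genes were. Osmr (-1.88) and Lifr (-1.48), receptors of the interleukin-6 family, were above the dim limit on all arrays. Tlr3, a sensor of double-stranded RNA, was counted through its isotonic signal of 5.49 and read a dim 4.45 in hypertonic medium, so its difference is poorly determined. Osmr was also lower than in wild-type hypertonic cells (-1.67), the 1 of 20 past 2-fold there. That is near the 6.43% of all genes that were at least 2-fold lower. Lifr was higher in knockout-labelled isotonic cells (1.10), the 1 of 21, where 1.59% of all genes were at least 2-fold higher. The tumour necrosis factor receptor gene Tnfrsf1a stayed between 8.61 and 8.92, and the adaptor gene Myd88 between 8.21 and 8.58. In the difference of responses Osmr (-1.51), Lifr (-1.48) and, from mostly dim signals, Tlr3 were at least 2-fold negative and none was at least 2-fold positive. Over all genes 5.53% were at least 2-fold negative and 1.41% at least 2-fold positive.

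**Figure D4:**
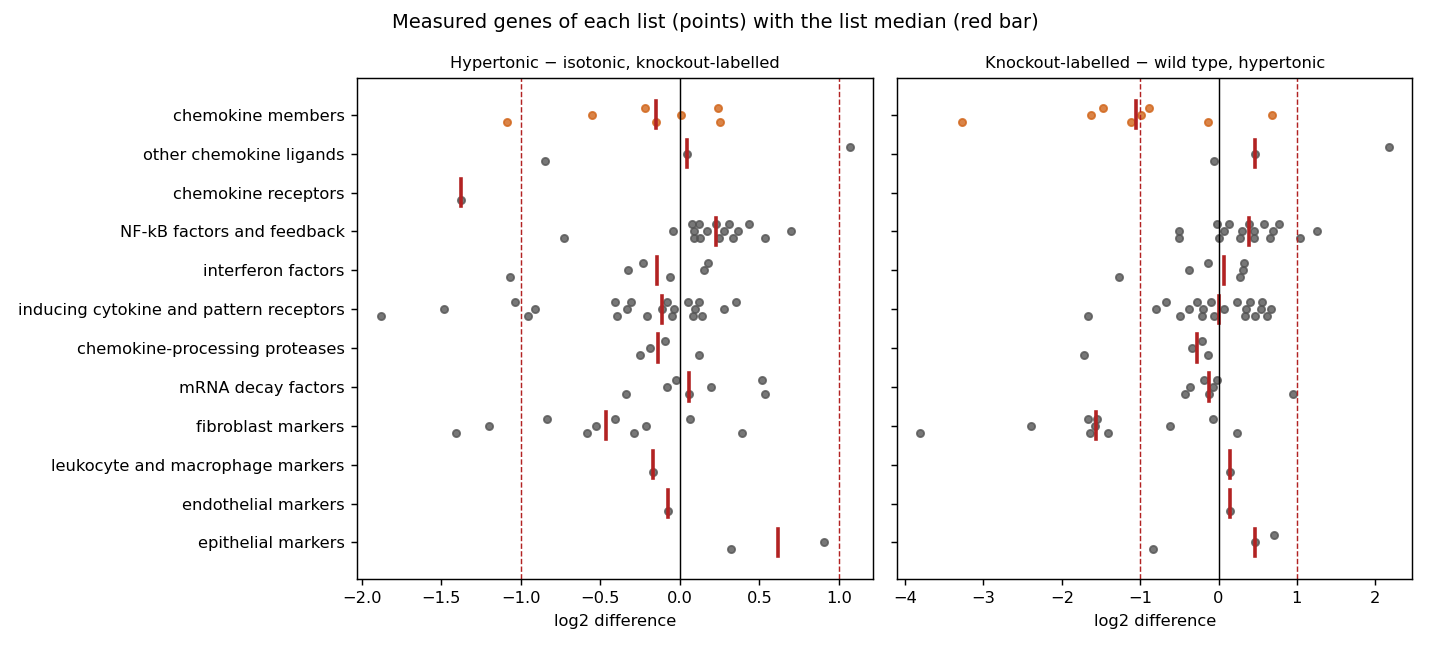
Points are the measured genes of each list by log2 difference (horizontal axis, a different range in each panel) and red bars are list medians, for the hypertonic response of knockout-labelled cells (left) and the genotype difference in hypertonic medium (right). At right the chemokine median is -1.05 and the fibroblast marker median -1.56, while that of the NF-kB list is 0.39.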

How the data were processed

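The authors deposited 1 log2 signal per probe set and array, from 1.57 to 13.94; the scale was read from the values. Per the submitters' processing notes MAS5 was used, with no version; for background and scaling the method was not given in the sources used here. Amplified, poly(T)-primed RNA went onto Affymetrix Mouse Gene arrays, per the labels' protocols. Having 1 array per group limits the precision.

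Of 35557 probe sets, 21789 named 1 gene, 1621 several and 12147 none; the first were used, the brightest per gene. Differences of deposited values were counted at 2-fold, and the counting was tested on simulated data. The members and 11 other lists (146 of 154 genes matched; the others were not analysed here) were chosen with earlier results of these data known, the motifs after the promoter windows were read. Named genes were all members, list genes past 2-fold, with large differences or bright, and the 3 genes nearest in profile to each of 2 members, leaving out provisional symbols. Rela, Nfkbia, Tnfrsf1a, Myd88, Vim, Fn1, Zfp36, the proteases, the dim ligands and receptors and the other cell type markers were picked for their roles, after their values were seen. Alternatives were quantile and cyclic loess normalization (R 4.3.3, limma 3.58.1), centring, other dim limits, the mean of probe sets and a 1.5-fold limit. Python 3.11.15 with pandas 2.3.3 and numpy 2.4.6 was used.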

Additional observations from a re-analysis of the deposited data

Results flagged for a closer look

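The hypertonic response had opposite signs in the genotypes and differed at least 2-fold between them for 3 members, with 1 array per group, and the difference was not tested. For each of them 1 of the signs rests on a value inside the spread between probe sets or on dim signals. Cxcl5 had a difference of responses (knockout-labelled minus wild type) of -1.67, from 0.59 in wild-type and -1.08 between dim signals in knockout-labelled cells. For Cxcl12 it was -1.37, from 0.28, inside that spread, and -1.09. For Ccl5 it was -1.004, from 0.79 and -0.22, the latter inside the spread, and it was -0.91 after quantile normalization, -0.95 after cyclic loess and -0.95 after centring, short of 2-fold.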

How the results depend on the processing

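The 50 member differences stayed within the probe set SD of the reported value under quantile normalization and under cyclic loess, and no member past 2-fold changed sign. Centring moves all genes of a comparison by the same amount, and the mean of probe sets changes nothing for members with 1 probe set each. The number of members past 2-fold moved as follows. In the wild-type response it went from 0 to 2 with a 1.5-fold limit. In the knockout-labelled response it went from 1 to 0 after quantile normalization and after cyclic loess, and to 2 with no dim limit, which adds Cxcl5. For the genotype difference in isotonic medium it went from 1 to 2 after quantile normalization, to 0 when the 75th percentile served as dim limit, which leaves 3 members, and to 3 with a 1.5-fold limit. In hypertonic medium it went from 4 to 2 with the 75th percentile limit, again with 3 members measured, and to 7 with a 1.5-fold limit, 6 lower and 1 higher. The other alternatives kept the counts within 1.5 times. No paired analysis was possible because each group has 1 array. Signals near background limit Cxcl5, Ccl8 and Ccl9.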

Other observations

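Of 6 listed proteases that release or trim chemokines, 4 were measured. Adam10 and Adam17, which shed Cx3cl1 and Cxcl16 from the cell surface, had genotype differences of -0.34 and -0.13 in hypertonic medium. Mmp2, a gelatinase that also clips Ccl7 and Cxcl12, had signals of 8.23 and 8.39 in wild-type and 6.92 and 6.67 in knockout-labelled isotonic and hypertonic cells, or -1.31 and -1.72 between genotypes. It was the 1 protease past 2-fold in each medium, where 1.28% (isotonic) and 6.43% (hypertonic) of all genes were at least 2-fold lower. None of the proteases passed in either hypertonic response. Over all genes 0.379% to 3.08% passed in each direction there, so none of 4 is not a result about the list. Dpp4, which inactivates Cxcl10 and Cxcl12, was dim on all arrays, between 3.52 and 3.69.

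Chemokine mRNAs are short-lived, and 8 genes for proteins that bind such mRNAs were listed, of which 7 were measured. None passed 2-fold in any of the 5 comparisons. Over all genes 0.379% to 6.43% passed it in each direction, so none of 7 is not a result about the list. The largest value was that of Rc3h1, which promotes decay of inflammatory mRNAs, 0.96 for the genotype difference in hypertonic medium. Zfp36, which binds AU-rich elements, had signals of 6.10, 6.17, 5.83 and 5.81 on the wild-type isotonic, wild-type hypertonic, knockout-labelled isotonic and knockout-labelled hypertonic arrays.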
